A study of Danio rerio with 12 samples.

Results

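Cytochrome P450 enzymes of families 2 and 3 were followed in the messenger RNA of zebrafish larvae exposed to broflanilide. The members are all genes whose name in the deposited tables begins with cyp2 or cyp3 and a further letter. They number 44 of 26255 genes, 39 in family 2 and 5 in family 3, in 14 subfamilies. The low-dose table held 43 of them and the high-dose table all 44. The name alone chose them, by a rule that used no measured value. Earlier results of these data were known when the rule was set.

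Broflanilide is a meta-diamide insecticide that acts on GABA-gated chloride channels of insects. Larvae received the solvent DMSO as control (5 libraries), a low dose of 1 µg/L (4 libraries) or a high dose of 10 µg/L (3 libraries). The labels name DMSO for the controls and do not say whether exposed larvae received it too. Poly(A) RNA was sequenced, with strain, larval age and length of exposure not given in the sources used here. Nothing says that libraries came from separate clutches or pools of larvae, so the p-values cover the spread between these samples alone, and that spread may be technical.

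P450 enzymes are heme proteins of the endoplasmic reticulum that insert oxygen into small molecules with electrons from NADPH, delivered by the P450 oxidoreductase. In vertebrates families 2 and 3 carry out much of the first step of drug and pesticide metabolism, chiefly in liver and gut, and some members instead act on vitamin D, fatty acids or steroids. Many are induced through nuclear receptors such as the pregnane X receptor (nr1i2). Bony fish carry subfamilies of family 2 that have no mammalian counterpart of the same name, among them cyp2aa, cyp2ad, cyp2k, cyp2n, cyp2p, cyp2v and cyp2x.

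Most members lie in tandem arrays (GRCz11 coordinates of the deposited tables). On chromosome 20, 11 genes of the cyp2n, cyp2ad, cyp2v, cyp2p and cyp2j subfamilies lie between 25515259 and 25615802. On chromosome 23, 10 genes, 9 of them cyp2aa and the other cyp2ae1, lie between 42292748 and 42666469, all on the plus strand. Chromosome 3 holds 8 cyp2k genes from 12710350 to 12826387, with cyp2k22 apart from them, and all 4 cyp3c genes from 40936094 to 40976582 on the minus strand. The other members are on chromosomes 1 (cyp2u1, cyp3a65), 7 (cyp2r1, cyp2x10.2, cyp2x12), 15 (cyp2y3) and 25 (4 cyp2x genes). The annotated span of cyp2aa8 contains cyp2aa11 and cyp2aa4 and overlaps most of cyp2aa7 on the same strand, and that of cyp2p7 contains cyp2p8, cyp2p9 and cyp2p10 and overlaps most of cyp2j20. On the opposite strand cyp2v1 overlaps cyp2ad2, cyp2ad3 and cyp2ad6, and cyp2r1 overlaps calca. The use of strand in counting is not stated in those sources, so the split of reads among these genes and among near-identical tandem copies is uncertain. Both ENSDARG00000102805 and ENSDARG00000103456 are called cyp2aa11 in the tables. The first is written here as cyp2aa12, its symbol in the gene name table used here.

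Library totals ran from 10721597 to 16380300 counts. Across all genes the first principal component (27.6% of the variance) placed control replicate 3 (score 119) opposite low dose replicate 4 (-93.0), while control replicate 2 (92.7) stood apart on the second (15.4%). Mitochondrial counts took 4.695% of the total in low dose replicate 4 and between 5.475% and 7.59% in the others. Markers of liver, gut, kidney, neurons, photoreceptors, muscle, pancreas, red blood cells, skin and phagocytes were all detected. The 18 hepatocyte markers summed to between 724 and 3838 CPM in controls, 1377 and 2428 at the low dose and 1403 and 4011 at the high dose. The 16 enterocyte markers measured ranged from 355 to 1422 CPM in controls, 421 to 1171 at the low dose and 433 to 1012 at the high dose.

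The levels of the members were very unequal. Per kilobase of the deposited gene length, cyp2ad3 (123 CPM per kilobase, read counts scaled by library size and TMM, mean of 12 libraries) and cyp3a65 (99.3) together held 62.4% of the summed level, and cyp3c1 (27.2) brought this to 70.1%. The highest 10 members held 88.0%. Across libraries cyp2ad3 ranged from 100.1 to 144 CPM per kilobase and cyp3a65 from 47.6 to 163, so these neighbours in the order overlapped. Below them cyp3c1 ranged from 19.3 to 42.3 and was under both in every library. Next came cyp2p7 (10.8 to 16.2), whose highest library lay under the lowest of cyp3c1. From cyp2p7 downwards each member overlapped its neighbours in the order, through cyp2ad6 (10.8), cyp2v1 (9.89), cyp2n13 (9.07) and cyp2p6 (8.56) to cyp2aa2 (0.595), the lowest of 32 members with a mean count of at least 10.

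**Figure D1:**
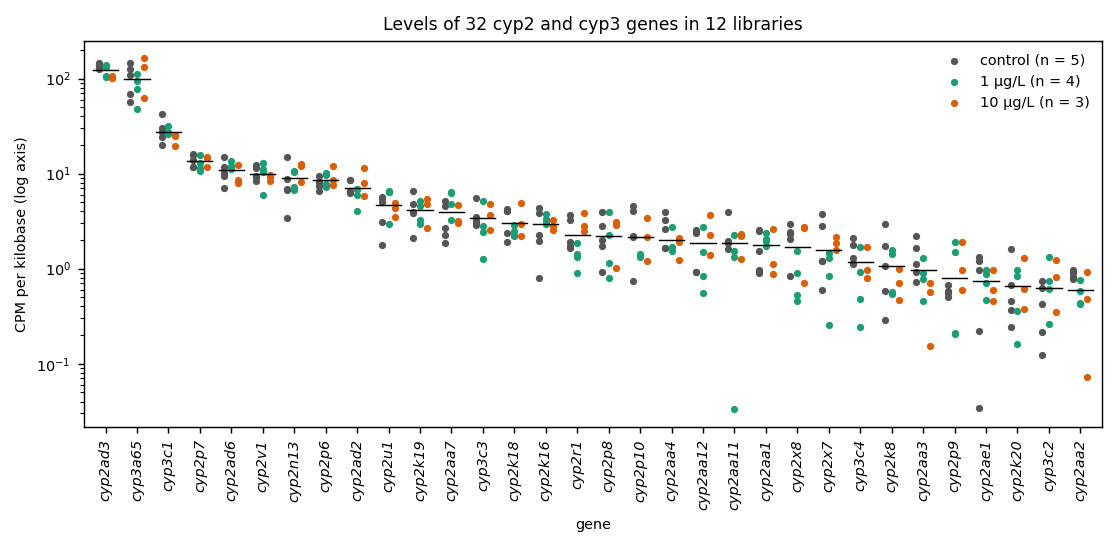
CPM per kilobase of gene length (log axis) of the 32 members with a mean count of at least 10, by library (points, coloured by group) and as the mean over 12 libraries (bar). The genes cyp2ad3 and cyp3a65 stand near 100 CPM per kilobase and most others under 10; the libraries with a count of 0 (cyp2aa4 in low dose replicate 4, cyp2p9 in control replicate 3, cyp2aa2 in control replicate 4) cannot be drawn on a log axis.

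Of the other 12 members, 11 had a mean count under 10 and cyp2x9 was listed in the high-dose table only. These 11 were cyp2aa8, cyp2aa9, cyp2j20, cyp2k6, cyp2k17, cyp2k21, cyp2k22, cyp2x6, cyp2x10.2, cyp2x12 and cyp2y3, and they entered no test with a count minimum. Among the 43 members in both tables, those at 0 in some library numbered 14, where a count of 0 allows a level of up to 0.167 to 0.313 CPM (3 counts, counting error only). At the other end 11 members had a mean count of at least 100, where counting error is smallest. Their coefficient of variation in controls still ran from 5.12% (cyp2ad3) to 53.0% (cyp2n13). The summed CPM of all members was 775 ± 132 (SD, n = 5) without exposure, 686 ± 93.9 (SD, n = 4) with 1 µg/L and 736 ± 152 (SD, n = 3) with 10 µg/L. Control libraries ran from 642 to 939 CPM, low-dose libraries from 548 to 746 and high-dose libraries from 563 to 849.9, so the sums of the 3 groups overlapped.

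Levels are given next by subfamily, as CPM in the order of replicate number. They are levels within a gene, and fold changes follow further on. The cyp2ad genes form a fish subfamily beside cyp2n13 and cyp2v1 on chromosome 20. For cyp2ad3 (chromosome 20, 25548425 to 25551676, minus strand) the level was 259.8, 277, 297, 291 and 284 CPM in controls, 219.6, 284, 269.9 and 211 at the low dose and 208, 220.5 and 206 at the high dose. Every high-dose library lay below every control, and low dose replicates 1 and 4 did too, while low dose replicates 2 and 3 lay within the control range. Its spread in controls (coefficient of variation 5.12%) was the smallest of the 32 members, whose median was 41.7%. The level of cyp2ad2 was 12.8, 12.1, 16.7, 16.6 and 12.3 CPM in controls, 13.4, 11.5, 13.2 and 7.80 at the low dose and 11.4, 22.2 and 15.4 at the high dose, with low dose replicate 4 lowest and high dose replicate 2 highest. The third gene, cyp2ad6, ranged from 12.2 to 25.5 CPM in controls, 18.9 to 22.96 at the low dose and 13.7 to 21.0 at the high dose.

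In the same array, cyp2n13 belongs to a subfamily whose killifish members act on arachidonic acid. It was at 12.2, 6.18, 27.6, 16.2 and 12.7 CPM in controls, 18.9, 13.1, 12.3 and 19.5 at the low dose and 14.9, 23.3 and 22.1 at the high dose. Control replicate 2 was lowest and control replicate 3 highest of all 12 libraries, so the controls spanned both exposed groups. The neighbouring cyp2v1 was at 22.8, 19.8, 29.7, 27.5 and 21.9 CPM in controls, 26.7, 25.2, 31.3 and 14.3 at the low dose and 22.3, 23.3 and 20.0 at the high dose, with low dose replicate 4 lowest. The cyp2p genes are also a fish subfamily, of which killifish members act on arachidonic acid. Their highest member, cyp2p7, was at 26.0, 26.0, 30.6, 35.5 and 34.6 CPM in controls, 25.4, 34.4, 28.3 and 23.6 at the low dose and 25.6, 32.5 and 31.7 at the high dose, and all 3 groups overlapped. A lower copy, cyp2p10, was at 3.98, 8.17, 1.36, 7.29 and 3.90 CPM in controls, 2.39, 2.44, 2.61 and 2.51 at the low dose and 3.90, 2.17 and 6.22 at the high dose. Its low-dose libraries lay between 2.39 and 2.61 CPM, inside a control range of 1.36 to 8.17. The level of cyp2p9 was 1.18, 1.56, 0, 1.37 and 1.30 CPM in controls, 3.51, 0.488, 0.483 and 4.40 at the low dose and 1.39, 2.26 and 4.44 at the high dose, with control replicate 3 at a count of 0. For cyp2p8, named after its values were seen, the level was 3.24, 1.71, 7.40, 5.19 and 3.77 CPM in controls, 7.41, 2.16, 4.25 and 1.504 at the low dose and 1.92, 5.74 and 5.41 at the high dose. The remaining copy, cyp2p6, ranged from 16.3 to 30.3 CPM over all libraries. The gene cyp2j20, related to the arachidonic acid epoxygenase CYP2J2 of humans, was at 0, 0, 0, 0.364 and 0 CPM in controls, 0.239, 0, 0 and 0.279 at the low dose and 0, 0.174 and 0.727 at the high dose, with a count of 0 in 7 of 12 libraries.

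The cyp2aa genes, a zebrafish subfamily, were all low. The highest per kilobase was cyp2aa7 (chromosome 23, 42336084 to 42341795, plus strand), at 2.58, 6.33, 3.13, 7.19 and 3.70 CPM in controls, 4.54, 8.71, 6.66 and 8.86 at the low dose and 6.61, 4.26 and 4.44 at the high dose. Low dose replicates 2 and 4 stood above all controls, and low dose replicates 1 and 3 within them. The gene cyp2aa3 (chromosome 23, 42482137 to 42493876, plus strand) was at 1.92, 1.56, 2.82, 3.73 and 1.23 CPM in controls, 2.23, 1.53, 0.772 and 1.34 at the low dose and 0.264, 1.22 and 0.970 at the high dose. All 3 high-dose libraries were below every control, but the nearest values were 1.22 and 1.23 CPM, a gap worth less than 1 count. For cyp2aa4 the level was 5.97, 7.32, 4.80, 3.01 and 3.05 CPM in controls, 5.02, 3.13, 2.799 and 0 at the low dose and 3.90, 3.48 and 2.26 at the high dose. The neighbour cyp2aa11 was likewise nearly absent from low dose replicate 4, with 1 count there and between 2.11 and 6.63 CPM in the other libraries. The level of cyp2aa12 was 6.41, 2.42, 6.57, 6.19 and 2.40 CPM in controls, 7.18, 2.16, 3.86 and 1.45 at the low dose and 3.63, 5.91 and 9.54 at the high dose, and the groups overlapped. The remaining tested members cyp2aa1 and cyp2aa2 ranged from 1.65 to 4.96 and from 0 to 1.77 CPM. At the end of this array cyp2ae1 was at 3.17, 2.56, 3.55, 0.0911 and 0.585 CPM in controls, 2.55, 1.88, 2.32 and 1.23 at the low dose and 1.59, 1.22 and 2.59 at the high dose, with control replicates 4 and 5 lowest.

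The cyp2k genes are a fish subfamily of which some trout and zebrafish members hydroxylate fatty acids. The highest per kilobase was cyp2k19 (chromosome 3, 12732382 to 12740310, plus strand), at 13.1, 7.18, 22.4, 16.6 and 13.5 CPM in controls, 17.9, 11.1, 15.5 and 10.1 at the low dose and 9.25, 16.6 and 18.7 at the high dose. Control replicates 2 and 3 were its lowest and highest library. A lower copy, cyp2k8, was at 2.06, 0.569, 1.15, 5.83 and 3.38 CPM in controls, 1.12, 3.06, 2.799 and 1.06 at the low dose and 0.925, 1.39 and 1.94 at the high dose, where control replicate 4 was highest. The other tested copies spanned 1.49 to 8.12 CPM (cyp2k16), 4.41 to 11.5 CPM (cyp2k18) and 0.279 to 2.799 CPM (cyp2k20), with the widest control spread of the 32 members in cyp2k20 (coefficient of variation 82.3%). Of the cyp2x genes, a fish subfamily, cyp2x8 was at 1.33, 3.84, 4.69, 3.64 and 3.25 CPM in controls, 1.44, 0.836, 2.41 and 0.724 at the low dose and 1.12, 4.26 and 4.28 at the high dose. Control replicate 1 and high dose replicate 1 lay among the low-dose libraries, and the other controls and high-dose libraries above them. Its neighbour cyp2x7 was at 1.03, 2.06, 6.46, 4.83 and 2.08 CPM in controls, 1.44, 2.51, 2.22 and 0.446 at the low dose and 3.24, 3.74 and 2.75 at the high dose. All 3 high-dose libraries of cyp2x7 lay above all 4 low-dose libraries, and the controls overlapped both, with low dose replicate 4 below every control.

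Some members have a known substrate outside drug metabolism. The vitamin D 25-hydroxylase gene cyp2r1 (chromosome 7, 27455321 to 27697234, plus strand) was at 4.64, 4.90, 9.18, 5.37 and 10.3 CPM in controls, 3.75, 5.29, 4.05 and 2.56 at the low dose and 7.07, 10.95 and 7.9999 at the high dose. Its high-dose libraries lay above all low-dose libraries, and both groups overlapped the controls. The gene cyp2u1, whose human counterpart hydroxylates long-chain fatty acids, was at 8.54, 9.52, 3.02, 5.28 and 9.62 CPM in controls, 10.9, 5.02, 11.3 and 11.03 at the low dose and 8.32, 7.39 and 5.90 at the high dose, with control replicate 3 lowest. The row named cyp2y3 held at most 10 counts in any library and was at 0.0737, 0.142, 0, 0.0911 and 0 CPM in controls, 0.797, 0, 0 and 0 at the low dose and 0.528, 0.0869 and 0.485 at the high dose.

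In family 3, cyp3a65 (chromosome 1, 59338175 to 59348118, minus strand) encodes a CYP3A enzyme of zebrafish liver and intestine. Its level was 114, 138, 294, 252 and 223 CPM in controls, 225, 156, 188 and 96.1 at the low dose and 125, 266 and 330.2 at the high dose. Among controls, replicates 1 and 2 were lower than replicates 3 to 5, and of all libraries high dose replicate 3 was highest and low dose replicate 4 lowest. The highest cyp3c gene, cyp3c1 (chromosome 3, 40969242 to 40976582, minus strand), was at 61.4, 43.9, 93.7, 66.3 and 54.1 CPM in controls, 59.5, 60.7, 69.8 and 57.7 at the low dose and 42.8, 55.6 and 57.0 at the high dose. All high-dose libraries lay below all low-dose libraries, but the nearest values were 57.0 and 57.7 CPM, and high dose replicate 1 was lowest of all libraries. Its tandem copy cyp3c4 was at 2.58, 2.99, 4.90, 2.64 and 4.09 CPM in controls, 3.91, 0.557, 2.12 and 1.11 at the low dose and 1.85, 2.26 and 3.88 at the high dose. The copies cyp3c2 and cyp3c3 ranged from 0.209 to 2.23 and from 2.79 to 12.2 CPM.

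The low-dose comparison asks which P450 transcripts differed after 1 µg/L. None of the 32 tested members passed (edgeR quasi-likelihood, adjusted p under 0.05 over all genes tested: 0 of 32 members and 0.00% of 18811 genes). The smallest p belonged to cyp2x8, a fish P450 gene, at 1.35 ± 0.773 (SD, n = 4) against 3.35 ± 1.25 (SD, n = 5) CPM, and of cyp2r1, the vitamin D enzyme, at 3.91 ± 1.12 (SD, n = 4) against 6.87 ± 2.64 (SD, n = 5) CPM. Their log2 fold changes were -1.32 (SE 0.52, unadjusted p = 0.0250) and -0.81 (SE 0.36, unadjusted p = 0.0419). These 2 members (6.25% of 32) had an unadjusted p under 0.05, against 3.89% of all genes. The adjusted p of both was 0.924. With 1 library left out, edgeR gave 0 to 3 members with an unadjusted p under 0.05. The 0 of 32 arose without low dose replicate 4 (275 of 18629 genes). By limma with quality weights it was also 0 of 32 members (851 of 18811 genes). In bulk larvae, fewer cells of a type and less RNA per cell cannot be told apart.

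Next in order at the low dose were cyp2p10 with a log2 fold change of -0.99 (SE 0.46), cyp2aa7 with 0.65 (SE 0.37), cyp3c4 with -0.84 (SE 0.53) and cyp2x7 with -0.99 (SE 0.63), each with an edgeR adjusted p of 0.924. The most abundant members lay nearer to 0, with cyp2ad3 at -0.196 (SE 0.15), cyp3a65 at -0.295 (SE 0.31), cyp3c1 at -0.04 (SE 0.204) and cyp2p7 at -0.13 (SE 0.18). Values were above 0 in 11 members and below 0 in 21, with 50.2% of all genes above 0. The median log2 fold change of the members was -0.22, beside 0.0013 over all genes, and their median standard error was 0.41. With 1 library left out the members' median ran from -0.31 without control replicate 2 to -0.080 without low dose replicate 4. It was -0.14 without low dose replicate 2, -0.28 with both marker scores described further on as covariates and -0.086 by limma with quality weights. By subfamily the median was -1.16 for the 2 tested cyp2x genes, -0.39 for the 7 of cyp2aa, -0.23 for the 5 of cyp2k, -0.18 for the 4 of cyp3c, -0.195 for the 3 of cyp2ad and -0.13 for the 5 of cyp2p. These subfamily medians were not computed with a library left out. In 0 of the 32 tested members were all low-dose libraries above every control (0.712% of all genes) and in 0 below (0.835%). DESeq2 called 0 members (0.00532% of all genes), and so did limma with quality weights (0.00%). Low dose replicate 4 held the lowest value of all libraries in 12 of the 32 members; without it and control replicates 2 and 3, cyp2x8 was at -0.82, cyp2x7 at -0.35 and cyp3c4 at -0.51. With both marker scores described further on as covariates cyp2p10 was at -0.64, and cyp3c4 ranged from -1.45 without low dose replicate 1 to -0.53 without low dose replicate 2.

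**Figure D2:**
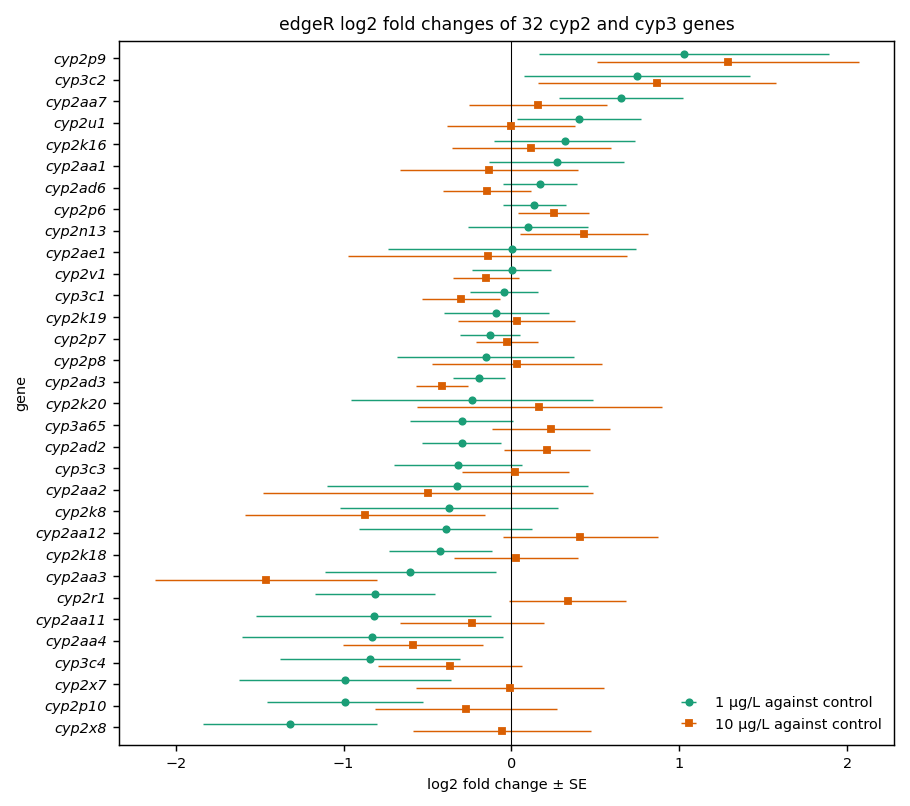
Log2 fold change (± SE) of 32 members at 1 µg/L (circles) and 10 µg/L (squares) against the same 5 controls, in order of the low-dose value. At the low dose values run from -1.32 (cyp2x8) to 1.03 (cyp2p9), at the high dose from -1.46 (cyp2aa3) to 1.29 (cyp2p9), and none passed the adjusted threshold.

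At the high dose, which asks the same after 10 µg/L, again 0 of 32 members passed by edgeR, as did 0.00% of 18618 genes. The most abundant member, cyp2ad3, was at 212 ± 7.65 (SD, n = 3) against 282 ± 14.5 (SD, n = 5) CPM among controls, which is a log2 fold change of -0.41 (SE 0.15, unadjusted p = 0.0199). The zebrafish cyp2aa3 was at 0.817 ± 0.494 (SD, n = 3) against 2.25 ± 1.02 (SD, n = 5) CPM, a log2 fold change of -1.46 (SE 0.66, unadjusted p = 0.0484). These were the 2 members with an unadjusted p under 0.05 (2.00% of all genes) and also the 2 whose high-dose libraries all lay below every control (1.08% of all genes). The adjusted p was 1.00 for both. In 0 of the 32 tested members did all high-dose libraries lie above every control, against 1.39% of genes. In the authors' deposited table cyp2ad3 has a log2 fold change of -0.43 with an unadjusted p of 0.00263 and an adjusted p of 1.00.

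Other members with the smallest p at the high dose were cyp2p9 with a log2 fold change of 1.29 (SE 0.78), cyp2aa4 with -0.59 (SE 0.42), cyp3c1 with -0.301 (SE 0.23) and cyp2k8 with -0.87 (SE 0.71), all with an edgeR adjusted p of 1.00. The liver and gut enzyme cyp3a65 was at 0.23 (SE 0.35), cyp2n13 at 0.43 (SE 0.38) and cyp2r1 at 0.33 (SE 0.35). Values were above 0 in 15 members and below 0 in 17 (above 0 in 49.5% of all genes), and the median was -0.0070 beside -0.0032 over all genes. With 1 library left out it ran from -0.099 without control replicate 2 to 0.101 without high dose replicate 1. Subfamily medians, also not computed with a library left out, were -0.23 for cyp2aa, -0.15 for cyp2ad, -0.14 for cyp3c, -0.03 for cyp2x, 0.03 for cyp2k and 0.03 for cyp2p. DESeq2 and limma with quality weights each called 0 members (0.0215% and 0.0107% of all genes). Leaving out 1 library put cyp2ad3 between -0.44 and -0.39, and over all 18 alternatives it ran from -0.44 to -0.31. By edgeR the unadjusted p of cyp2ad3 and cyp2aa3 was not under 0.05 without high dose replicate 1 or without high dose replicate 3. The value of cyp2p9 was 0.73 without high dose replicate 3, that of cyp3c1 -0.12 without control replicate 3, that of cyp2k8 -0.35 without control replicate 4, and that of cyp2aa4 -0.39 without control replicate 2 or without high dose replicate 3. With the hepatocyte and enterocyte marker scores described further on as covariates, cyp2aa3 was at -0.71, cyp2aa4 at -0.15 and cyp2k8 at -1.33. These values are less precise, since the median standard error over all genes was 0.58 in that fit and 0.33 without the scores. In the fit with the scores 0 of 32 members had an unadjusted p under 0.05 (570 of 18618 genes).

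**Figure D3:**
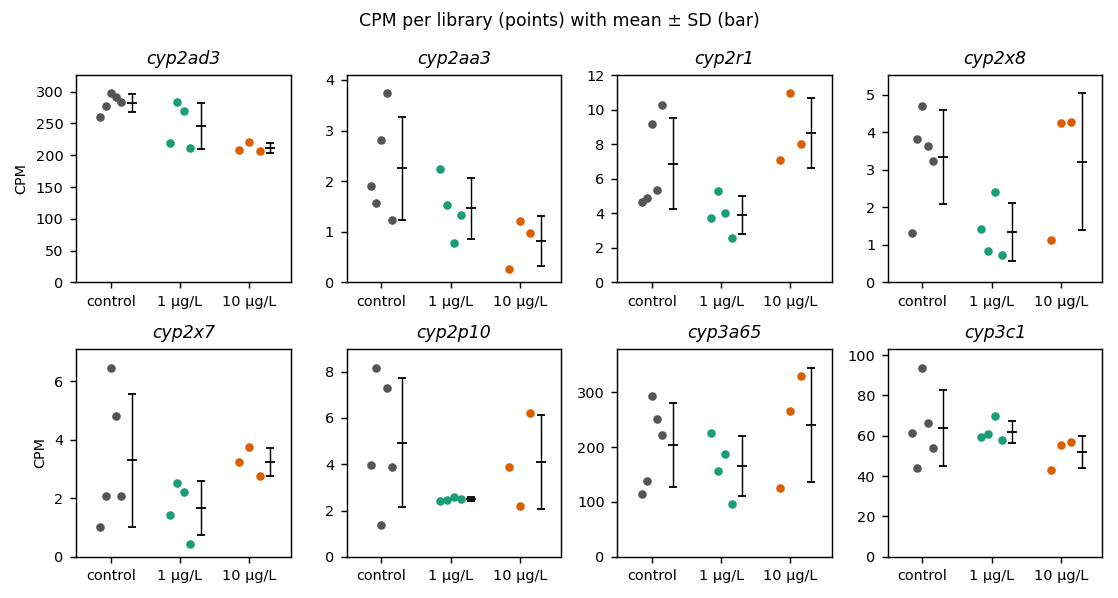
CPM (linear axes from 0, each gene on its own axis) of 8 members in every library, by group, with mean ± SD beside the points (n = 5, 4 and 3). For cyp2ad3 the 3 high-dose libraries sit between 206 and 220.5 CPM, all below the controls (259.8 to 297 CPM), whereas the groups of cyp3a65 overlap.

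High and low dose were set against each other in a fit of all 12 libraries. By edgeR 0 of 32 members passed (0.00% of 18786 genes). The vitamin D enzyme gene cyp2r1 was at 8.67 ± 2.03 (SD, n = 3) CPM at the high dose against 3.91 ± 1.12 (SD, n = 4) CPM at the low dose, a log2 difference of 1.15 (SE 0.37, unadjusted p = 0.00701). The second member with an unadjusted p under 0.05 was cyp2x8, at 3.22 ± 1.82 (SD, n = 3) against 1.35 ± 0.773 (SD, n = 4) CPM and 1.26 (SE 0.59, unadjusted p = 0.0482). Of all genes 4.48% had an unadjusted p under 0.05. The adjusted p was 0.953 for both members. Among the 32 tested members, all high-dose libraries lay above all low-dose libraries in 2, cyp2r1 and cyp2x7 (3.84% of all genes). The high-dose libraries lay below all low-dose libraries in 1, cyp3c1 (2.84%).

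Further log2 differences of high against low dose were 0.51 (SE 0.27) for cyp2ad2, 0.98 (SE 0.64) for cyp2x7, 0.802 (SE 0.56) for cyp2aa12, 0.53 (SE 0.37) for cyp3a65 and -0.26 (SE 0.22) for cyp3c1. Values were above 0 in 20 members and below 0 in 12, with 48.9% of all genes above 0. The median was 0.15 beside -0.01 over all genes. It depended on single libraries, at 0.48 without low dose replicate 1, 0.43 without high dose replicate 1, 0.067 without low dose replicate 2, 0.052 without high dose replicate 2 and 0.028 without low dose replicate 4 or high dose replicate 3. Of the hepatocyte markers 17 of 17 tested were above 0 (median 0.92), 4 with an unadjusted p under 0.05, and of the photoreceptor markers 11 of 11 were (median 0.95), 8 with an unadjusted p under 0.05. None of either list passed by edgeR. The photoreceptor markers summed to between 3677 and 6351 CPM in controls, 2251 and 4235 at the low dose and 3902 and 6676 at the high dose, and their part in the values of the members was not tested. DESeq2 called 0 members (0.00% of all genes), as did limma with quality weights (0.0106%). With both marker scores as covariates cyp2r1 was at 0.62, cyp2x7 at 0.56, cyp2ad2 at 0.33 and cyp3a65 at 0.13. The median standard error over all genes was 0.42 in that fit and 0.36 without the scores. Without high dose replicate 3 cyp3a65 was at 0.23 and cyp2aa12 at 0.39, and without high dose replicate 2 cyp2ad2 was at 0.22.

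Because liver and gut express many of these genes, each member was also set against the level of liver and gut markers in each library. A hepatocyte score was the mean log2 CPM of 17 hepatocyte markers, relative to their mean over the 12 libraries. These were the listed markers with a mean count of at least 10, none of them a member. It was -0.28, -1.63, 0.82, -0.24 and -0.12 in controls, 0.35, -0.15, -0.0995 and -0.55 at the low dose and -0.41, 1.07 and 1.22 at the high dose. The lowest library was thus a control and the highest were high dose replicates 2 and 3, with control replicate 3 next. An enterocyte score built the same way from 15 markers was -0.23, -0.81, 0.88, 0.202 and -0.14 in controls, 0.82, -0.63, -0.15 and -0.13 at the low dose and -0.71, 0.47 and 0.45 at the high dose. At the high dose 0 of 17 tested hepatocyte markers passed by edgeR, but 16 were above 0 (median log2 fold change 0.93), and 4 had an unadjusted p under 0.05. At the low dose 8 of 17 were above 0 (median -0.0038). The part of this shift in the high-dose values of the members was not tested beyond the fits with scores as covariates. Each gene was fitted on a score beside the group, so the slopes below are differences within groups per log2 unit of score.

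Levels of 3 of 32 members rose with the hepatocyte score by edgeR, against 1.70% of all genes. The fish gene cyp2k19 had a slope of 0.67 (SE 0.12) with an adjusted p of 0.0187, cyp2p8 1.04 (SE 0.24) with an adjusted p of 0.0467, and cyp3a65 0.62 (SE 0.15) with an adjusted p of 0.0486. Just outside the threshold were cyp2n13 at 0.63 (SE 0.16) with an adjusted p of 0.0582 and cyp3c1 at 0.35 (SE 0.09) with an adjusted p of 0.0647. Slopes were above 0 in 27 of 32 members, with 49.5% of all genes above 0, and their median was 0.35 beside -0.0039 over all genes. An unadjusted p under 0.05 was reached by 9 members (28.1%) and by 20.7% of all genes, and 1 of the 9, cyp2aa7, had a slope below 0 (-0.45). The most abundant member, cyp2ad3, had a slope of 0.03 (SE 0.09) with an adjusted p of 0.870.

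**Figure D4:**
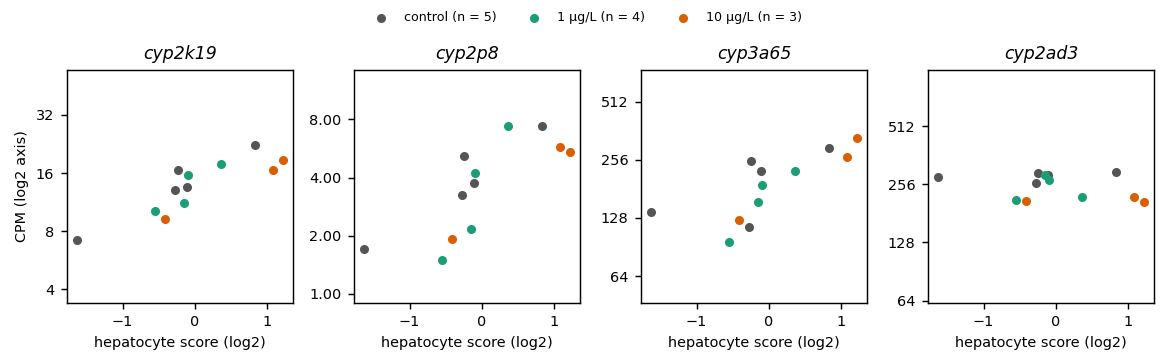
CPM (log2 axes, each spanning the same 4 doublings) of 4 members against the hepatocyte score of each of the 12 libraries, coloured by group. The levels of cyp2k19, cyp2p8 and cyp3a65 are higher in libraries with a higher score (slopes 0.67, 1.04 and 0.62), and that of cyp2ad3 shows a slope of 0.03.

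These calls rest on few libraries. The count of members was 0 without control replicate 2, without control replicate 3 or without high dose replicate 1, and 0 without the libraries that stood apart, while the slopes stayed above 0 (0.65 to 0.702 for cyp2k19, 0.94 to 1.17 for cyp2p8 and 0.55 to 0.83 for cyp3a65 with 1 library left out). DESeq2 called 6 members (8.78% of all genes), adding cyp2n13, cyp3c1 and cyp2aa12. By edgeR against the same score 6 of 15 enterocyte, 2 of 9 pancreas, 2 of 5 red blood cell and 1 of 8 skin markers passed. In that edgeR fit the slopes of all 12 skeletal muscle and all 8 skin markers were above 0. Slopes above 0 were fewer among photoreceptor (3 of 11), neuron (5 of 12) and kidney (7 of 14) markers, and 3 photoreceptor and 3 neuron markers had an unadjusted p under 0.05 with a slope below 0. The part of these tissues in the slopes of the members was not tested.

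Against the enterocyte score 0 of 32 members passed by edgeR (0.218% of all genes), and 9 had an unadjusted p under 0.05 (8.57% of all genes). The slopes with the smallest p were those of cyp2p8 at 1.26 (SE 0.26) with an adjusted p of 0.0822, cyp2k19 at 0.75 (SE 0.16) with 0.0936, cyp2n13 at 0.78 (SE 0.18) with 0.127 and cyp3a65 at 0.71 (SE 0.19) with 0.215. DESeq2 called these 4 members (1.37% of all genes). Slopes were above 0 in 27 members, beside 47.2% of all genes, with a median of 0.27. The hepatocyte and enterocyte scores share the same libraries and correlated at 0.79 over them, so they are not separate readouts of liver and gut. The members with the smallest p against either score were largely cyp2p8, cyp2k19, cyp2n13 and cyp3a65.

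**Figure D5:**
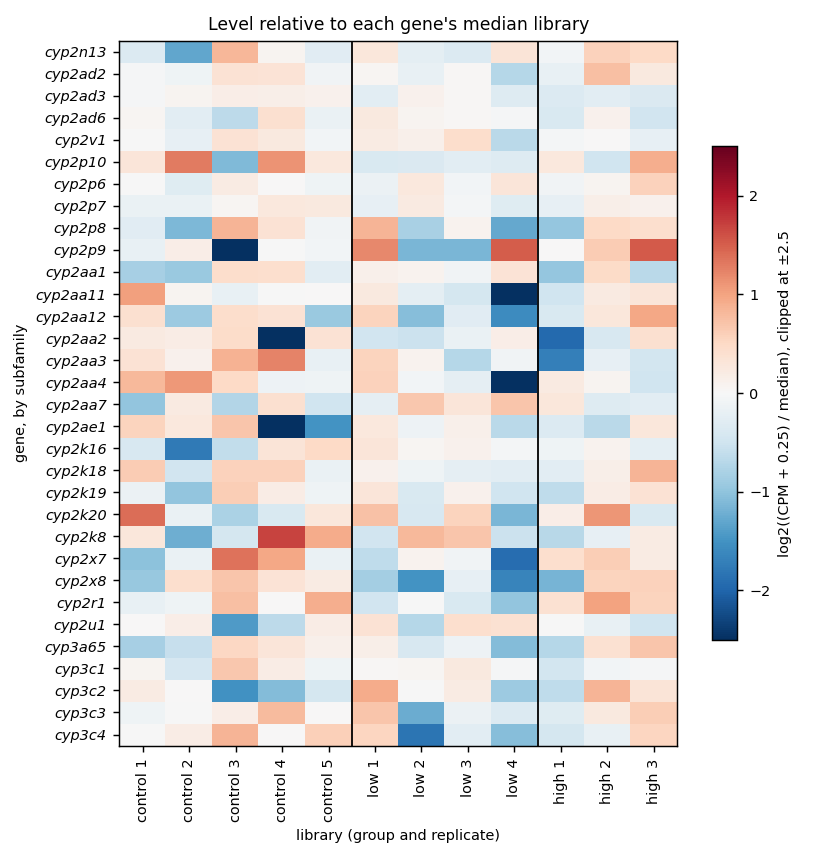
Level of 32 members (rows, by subfamily) in 12 libraries (columns) as log2 of CPM plus 0.25 relative to the median library of each gene, clipped at 2.5 to either side. Low dose replicate 4 holds the lowest value in 12 rows, control replicate 3 the highest in 9 and the lowest in 5. The matching shares of all genes were not counted.

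Genes that P450 enzymes depend on were described from a list of 22, with 19 tested, which holds electron donors, enzymes of heme synthesis, heme oxygenases (heme breakdown) and the heme-binding protein gene pgrmc1. At the low dose 0 passed by edgeR and 0 had an unadjusted p under 0.05, with 6 above 0 (median log2 fold change -0.21). At the high dose 0 passed and 1 had an unadjusted p under 0.05, with 11 above 0 and a median of 0.096. Both copies of the P450 oxidoreductase gene were added after the list's symbol por matched no row. The level of pora was 54.7 ± 8.002 CPM (SD, n = 5) without exposure, 57.4 ± 18.5 (SD, n = 4) with 1 µg/L and 49.5 ± 2.97 (SD, n = 3) with 10 µg/L. That of porb was 64.2 ± 17.7 (SD, n = 5), 77.6 ± 23.9 (SD, n = 4) and 59.4 ± 15.7 CPM (SD, n = 3). At the low dose the smallest p were those of uros (log2 fold change -0.34), ppox (1.099) and alas1 (0.35), all enzymes of heme synthesis. At the high dose they were cyb5r1 of the cytochrome b5 reductases (1.61, unadjusted p = 0.0426, edgeR adjusted p = 1.00), ppox (1.47) and the electron carrier cyb5b (-0.37).

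Transcription factors that control P450 genes were described from a list of 36, of which 31 were in both tables. By edgeR 0 of 29 tested passed at the low dose (19 above 0, median 0.23) and 0 of 28 at the high dose (18 above 0, median 0.065). Those with an unadjusted p under 0.05 numbered 0 in both comparisons. The pregnane X receptor gene nr1i2 was at 7.79 ± 4.35 CPM (SD, n = 5) without exposure, 12.01 ± 6.74 (SD, n = 4) with 1 µg/L and 7.96 ± 2.06 (SD, n = 3) with 10 µg/L. Its log2 fold changes were 0.62 (SE 0.49) and 0.02 (SE 0.48). After 1 µg/L the smallest p belonged to pparab (0.89), rxrba (0.54) and foxa1 (-0.37), and after 10 µg/L to pparg (1.095), the orphan receptor gene nr0b2a (-1.28) and rxrgb (0.31).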

How the data were processed

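Poly(A) libraries were made with a directional kit, per the labels' protocols. The tools fastp, HISAT2, featureCounts and DESeq2 and the genome build GRCz11 are named, per the submitters' processing notes, without version or role. A table per dose, both with the 5 controls, gives the authors' whole-number read counts per Ensembl gene, per the file headers, and all fits started from these. The authors' deposited tables also hold their log2 fold change, p-value and adjusted p-value, cited only as such. A further 38 columns of per-sample values were left aside.

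Genes whose mean count was 10 or more were tested with the quasi-likelihood test of edgeR 4.0.16 in R 4.3.3 (TMM, prior count 0.125). P-values were adjusted by Benjamini-Hochberg over every gene tested, with a threshold of 0.05. A dose was set against the controls of its own table. The other comparisons used genes in both tables and all 12 libraries. Scores used log2 CPM with a prior count of 1. Standard errors are the log2 value divided by the square root of F. Alternatives were DESeq2 1.42.0, DESeq2 size factors, limma 3.58.1 with quality weights, other count minimums and prior counts, the replicate number as a block, marker scores as covariates, 1 fit of all 12 libraries and each library left out. Leaving out the libraries that stood apart was chosen after seeing the data. The test was checked on simulated counts.

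Of the 44 members 42 had the same symbol in the gene name table used here. These include cyp2aa12, whose symbol was taken from that table. Every library's values are given for the highest member per kilobase of each subfamily, for the 6 tested members with the smallest p per dose comparison, and for those whose exposed libraries did not overlap the controls. From the lists, por, nr1i2 and up to 3 genes with the smallest p per dose are named. Members and lists were chosen with earlier results of these data known. Total counts of 10721597 to 16380300 per library put the level that 3 counts give at 0.167 to 0.313 CPM. Floors cover counting error only. Figures were drawn with matplotlib 3.10.9.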

Additional observations from a re-analysis of the deposited data

Results flagged for a closer look

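Groups of 4 or 5 libraries were screened for a library whose gap to the nearest other exceeded Dixon's 95% critical value. Of 64 groups (control and low dose for 32 members) 5 had such a library, and chance gives about 1 in 20. The gene cyp2u1 was at 5.02 CPM in low dose replicate 2, with the other low-dose libraries at 10.9 to 11.3 CPM. For cyp3c3, control replicate 4 was highest at 12.2 CPM, and the other controls were at 6.48 to 7.82 CPM. For cyp2aa11, control replicate 1 was highest at 6.63 CPM against 2.71 to 3.27 CPM. A count of 0 was found for cyp2p9 in control replicate 3 (other controls at 1.18 to 1.56 CPM) and for cyp2aa2 in control replicate 4 (1.42 to 1.77 CPM). A count of 0 allows up to 0.313 CPM in control replicate 3 and 0.273 CPM in control replicate 4. Control replicate 4 appears for both cyp3c3 and cyp2aa2. The cause was not tested.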

How the results depend on the processing

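The number of members past the threshold was 0 in each dose comparison under all 19, 18 and 21 alternatives (low dose, high dose, high against low). Against the hepatocyte score it was 3, and became 6 with DESeq2, 0 with the replicate block, 0 without the libraries that stood apart, and 0 to 4 with 1 library left out. Against the enterocyte score it was 0, and became 4 with DESeq2 and 0 to 1 with 1 library left out (cyp2p8 without low dose replicate 4, adjusted p = 0.0323). Of 391 values for 21 named results, 364 kept direction and side of the threshold and 26, all hepatocyte slopes, kept direction and lost the threshold. The other 1 reversed: cyp2k8 at the high dose was at 0.27 with the replicate block, against -0.87, and the cause was not tested. Replicate numbers gave no sign of pairing the samples. Deviations of same-numbered libraries correlated at -0.26 to 0.26, and those of differently numbered libraries at -0.33 to 0.31. The count between doses was 0 with and without the block, so it cannot test pairing. With 3 to 5 libraries a group and a median standard error of 0.41 (low dose) and 0.42 (high dose) on the log2 scale, the 0 calls between doses do not show that levels were alike, and members under a mean count of 10 entered only the fits without a count minimum.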

Other observations

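Among the members under a mean count of 10, a pair stood out and was chosen after its values were seen. Raw counts of cyp2aa8 were 17, 13, 0, 6 and 13 in controls, 0 in all 4 low-dose libraries and 3, 1 and 7 at the high dose. The pooled control level was 14.2 times the level that 3 counts over the whole low-dose group would give. This ratio takes the control counts as exact and leaves out the spread between libraries, so it is not a lower bound. Without a count minimum edgeR gave cyp2aa8 an unadjusted p of 0.00312 and an adjusted p of 0.808 at the low dose, and control replicate 3 was also at 0. In the authors' deposited table its low-dose log2 fold change is -5.71 with an unadjusted p of 0.000368 and an adjusted p of 0.592. The gene overlaps cyp2aa7, cyp2aa11 and cyp2aa4 on the same strand, and of these cyp2aa11 and cyp2aa4 were nearly or fully at 0 in low dose replicate 4.

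Raw counts of cyp2k17 were 0, 0, 0, 1 and 0 in controls, 5, 5, 2 and 13 at the low dose and 1, 5 and 4 at the high dose. Every low-dose library (0.193 to 0.724 CPM) lay above every control (at most 0.0911 CPM). The same pattern held for 0.712% of the genes tested at the low dose, but cyp2k17 was too low to be among them. Its share among genes as low as cyp2k17 was not counted, so this separation has no background to compare with. The ratio of pooled levels to controls was 28.8 at the low dose (95% counting interval 4.71 to 1182) and 16.3 at the high dose (2.32 to 707), with 1 count in all controls. Without a count minimum edgeR gave an unadjusted p of 0.0168 and an adjusted p of 0.808 at the low dose. In the high-dose table cyp2x9 had 0, 6 and 0 counts at the high dose.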
